A study of Brassica oleracea var. italica with 2 samples.

Results

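The genomic positions of known miRNAs were examined in the small RNA data of 2 broccoli lines (Brassica oleracea var. italica). All 1400 records of the deposited table of known plant miRNAs were used, with or without reads, because each one gives a chromosome, a strand, a start and an end. Records that shared at least 1 nt on one strand were merged, which gave 1115 loci. The 3 deposited tables together list 1681 position records, the other 281 being stem-loops of candidate miRNAs. The positions lie on the genome of Brassica rapa (Brapa_sequence v1.1), a close relative of broccoli, so a locus here is the place of a matching sequence in that genome and not a mapped gene of broccoli itself. Reads were counted in 2 libraries, 1 from heat-tolerant (HT) and 1 from heat-sensitive (HS) plants, lines with nearly isogenic backgrounds that differ in their capacity to form heads (curds) at high temperature. Both libraries came from the shoot apex of 54-day-old plants kept at 22 °C under long days, and the labels name no transgene or other agent in either line. The labels give HT a high and HS a low curd-forming capacity and do not say how many plants made up a library. The libraries held 27069903 (HT) and 26253036 (HS) reads, as computed from the deposited counts and their TPM values (counts scaled to the library size). With 1 library per genotype no difference has a replicate check, so ratios are given with exact 95% Clopper-Pearson intervals that cover counting error only. Only small RNAs were counted, so the tissue label could not be checked against marker genes.

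Plant miRNAs are cut by a Dicer-like enzyme from the stem of a hairpin transcript. The cut releases a duplex whose one strand, the mature miRNA, guides an Argonaute protein to complementary mRNAs, while the other, the miRNA*, is mostly degraded. Old families such as miR156, miR166, miR169 and miR395 are encoded by several genes in a genome, and some of these genes stand side by side. The Brassica lineage went through whole-genome duplication and triplication, and copies of one gene are found on several of its chromosomes.

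The sequences listed at the most loci are shown first, because they tie the map to the reads: a read of such a sequence fits each of its loci equally well. Bases 2 to 8, the seed, are in capitals, and DNA letters are kept as in the table.
miR169, 5 loci on A01, A02, A06, A08 and A09: tAGCCAAGgatgacttgcctg
miR160, 5 loci on A01, A03, A05 and A06: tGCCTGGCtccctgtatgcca
miR166, 5 loci on A05, A06, A09 and A10: tCGGACCAggcttcattcccc
miR156, 4 loci on A01, A04, A08 and A09: tGACAGAAgagagtgagcac
miR171, 4 loci on A01, A04, A07 and A09: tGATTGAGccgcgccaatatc
miR395, 4 loci on A02 and A07: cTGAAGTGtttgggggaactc
These are members of the families that regulate nuclear factor Y subunits (miR169), auxin response factors (miR160), class III homeodomain-leucine zipper factors (miR166), SPL factors (miR156), GRAS factors (miR171) and sulfate assimilation (miR395). In all, 1142 distinct sequences were listed. Of these, 49 stood at 2 or more loci and 15 at 3 or more, and 114 loci listed a sequence that was also listed elsewhere.

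Most loci rested on a single record. There were 953 loci of 1 record, 99 of 2 records and 63 of 3 or more, up to 9 records in one locus. The loci were 17 to 28 nt long, the length of the small RNA itself and not of its precursor. Records joined in one locus were mainly the same miRNA under the names of several plant species, and 44 species prefixes occurred in the table. Each record has 1 position, so the number of copies of a family is limited by the names it has in miRBase and is not a count of all its genes. The listed sequence of 3 records consisted of the letter N alone, that is, of unread bases of the genome, and none of these records held reads.

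The 1115 loci were spread over all 10 chromosomes, with none on unplaced scaffolds, and 575 of them lay on the plus strand and 540 on the minus strand. Chromosome A02 carried the most loci (146), followed by A03 (144) and A09 (142), and A10 the fewest (71). Relative to the distance between the first and the last locus of a chromosome, the density ranged from 3.89 loci per Mb on A09 to 5.33 on A02 and 5.29 on A07. The 142 loci of A09, the chromosome with the longest span (36.6 Mb), were thus the most thinly placed. Neighbouring loci were a median of 142.7 kb apart.

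**Figure D1:**
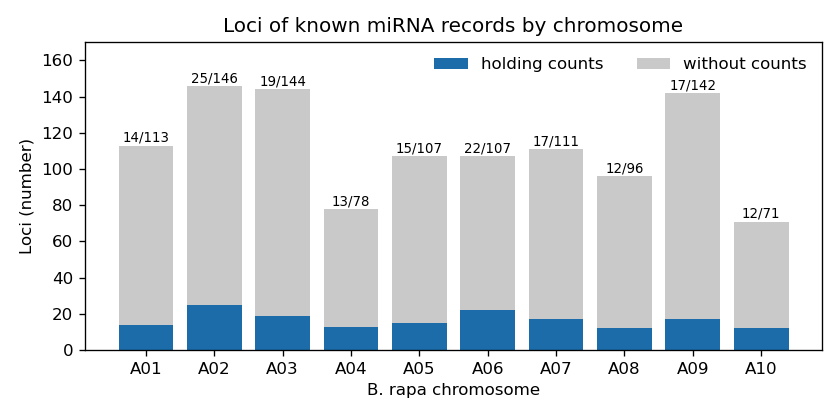
Number of loci (y axis) on each B. rapa chromosome (x axis), split into loci whose records hold reads in either library (blue) and loci without counts (grey); the label above a bar gives both numbers. A02, A03 and A09 carry 146, 144 and 142 loci, and on every chromosome the loci without counts outnumber the others.

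Reads were recorded for 14.9% of the 1115 loci, and the other 949 had no count in either library. The share with reads ranged from 12% on A09 to 20.6% on A06. The reads summed over loci came to 38431 in HT and 28582 in HS. They were concentrated in few loci: the single locus of vvi-miR319g on A03 held 20.3% of them, the 10 loci with most reads 62.2% and the 20 with most reads 82.6%. The median locus with a count held 14.5 reads over both libraries, and 73 loci held fewer than 10. Reads were found in each library at 116 loci, only in HT at 30 and only in HS at 20.

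The 1115 loci belonged to 625 families. A single locus was listed for 480 families, 2 to 4 loci for 114 and 5 or more for 31. The 16 families with 10 or more loci accounted for 25.1% of all loci. The miR169 family, which targets the A subunits of nuclear factor Y, had the most loci (37 on 9 chromosomes), and miR156, which holds back the SPL factors of the adult phase, was the only family on all 10 chromosomes, with 30 loci. These were followed by miR171 with 24 loci, miR399 with 21, miR159 and miR172 with 18 each, miR166 and miR395 with 17 each, miR167 with 15, and miR164, miR319 and miR482 with 14 each. Joining records within 300 nt on one strand, about the size of one hairpin, left 28 positions of miR169, 24 of miR156 and 16 of miR399, since both arms of many hairpins are listed. It also joined neighbouring hairpins of the miR169 arrays on A02 and A06 described below, which lie 226 and 212 nt apart.

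**Figure D2:**
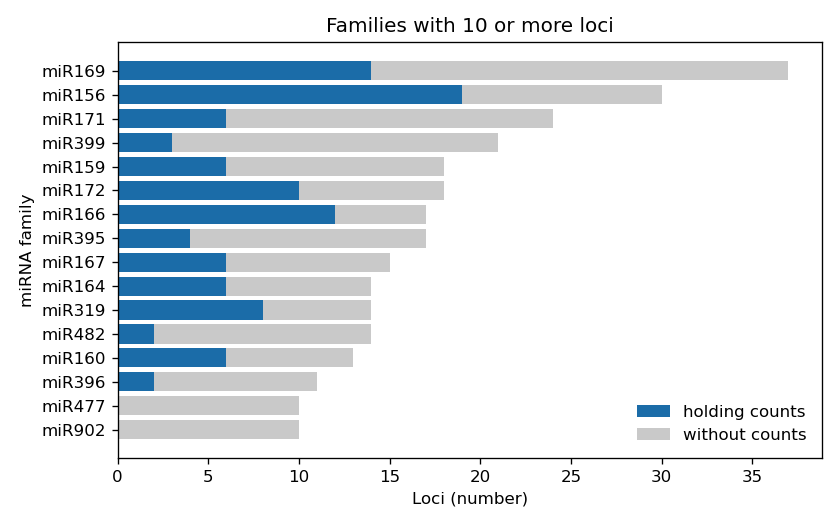
Number of loci (x axis) of the 16 families with 10 or more loci (y axis), split into loci holding counts (blue) and loci without (grey). Counts stand at 12 of 17 loci of miR166 and 19 of 30 of miR156, but at 3 of 21 of miR399 and at none of the 10 loci each of miR477 and miR902.

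Loci of families with many copies held reads more often than those of families with 1. Of the 280 loci in families of 10 or more, 105 held reads (37.5%), compared with 21 of 85 (24.7%) in families of 5 to 9 loci, 23 of 272 (8.46%) in families of 2 to 4 and 17 of 478 (3.56%) in families of 1. The same 280 loci held 76.2% of all reads. There were exceptions in each direction. No read was recorded under the names of miR477 (10 loci), miR902 (10), miR529 (8) or miR2275 (7), although 2 of the miR529 loci also carry a miR156 name that has reads. In contrast, miR2911 had 1 locus, on A06, with 1680 reads in HT and 1462 in HS. Reads were held by 17 of the single-locus families, for example miR5054 (26 in HT and 43 in HS) and miR3630 (10 and 23). The 478 loci of single-locus families are fewer than the 480 such families because a locus with names of several families was placed with the larger one.

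The similarity of the listed sequence to its miRBase entry went together with the presence of reads. Of the loci with at least 1 record identical to miRBase, 81 held reads (51.3%), compared with 53 of 176 (30.1%) with 1 difference and 28 of 736 (3.80%) with 2. Of the 45 loci with 3 or more differences, which include the 3 listed as N, 4 held reads. Loci identical to miRBase carried 57.7% of all reads and those with 1 difference 39.6%. Reads were matched to miRBase entries at identity or near identity when the table was made, and the part of that rule in this fall was not tested. By species name the relation was uneven. Of the 190 records named after Arabidopsis (ath), 62 were identical to miRBase and 27 held reads, and of the 100 named after the moss Physcomitrella (ppt) 3 were identical and 2 held reads. Of the 26 named after Selaginella (smo), however, 1 was identical and 6 held reads, and of the 14 named after peanut (ahy) 4 were identical and 1 held reads.

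**Figure D3:**
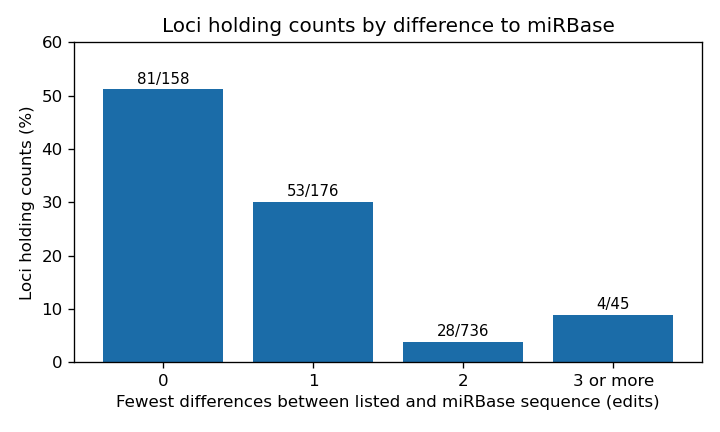
Share of loci holding counts (y axis, %) by the fewest differences between the listed sequence of any of the locus's records and its miRBase entry (x axis, number of edits); the label gives the loci holding counts out of all. The share falls from 51.3% at 0 differences to 3.80% at 2.

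With all families pooled, the miRNA* loci held reads more often than the mature ones. Of 163 loci named only as miRNA*, 45 held reads (27.6%), compared with 113 of 913 mature loci (12.4%) and 8 of 39 loci with both kinds of names. Within families the order varied, so the pooled shares do not describe the arms of a given family. In miR156, miR166 and miR395 the mature loci held reads more often than the miRNA* loci. In miR169, miR398 and miR399 the miRNA* loci did. A 5′ T (U in the RNA), the base that AGO1 prefers, opened the leading sequence at 79 of the 113 mature loci with reads (69.9%) and at 5 of the 45 miRNA* loci with reads.

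The map was then read by the role of the families. The phase change and flowering group (miR156 and miR157, which repress SPL factors, and miR172, which represses AP2-like repressors of flowering) had 52 loci, of which 32 (61.5%) held reads, the largest share of the groups. The meristem and organ shape group (miR159, miR164, miR165, miR166, miR319, miR394 and miR396, which target MYB, NAC, homeodomain-leucine zipper, TCP, F-box and growth-regulating factors) had reads at 38 of 79 loci (48.1%), and these held 58.4% of the HT and 63.4% of the HS reads. Reads were present at 19 of 40 loci (47.5%) of the auxin group (miR160, miR167, miR390 and miR393, together with miR391, a sequence relative of miR390). They were present at 21 of 62 loci (33.9%) of miR169, miR170 and miR171, and at 15 of 61 (24.6%) of the nutrient and copper group (miR395, miR397, miR398, miR399, miR408, miR827 and miR857). Of the miRNAs that target the small RNA machinery itself, miR162 (DCL1), miR168 (AGO1) and miR403 (AGO2), 5 of 10 loci held reads. The miR158, miR161 and miR400 group, whose targets are mainly PPR genes, had reads at 2 of 8 loci. All other families together had 803 loci, of which 34 (4.23%) held reads.

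Of the 49 sequences listed at several loci, 13 held reads at 2 or more of them, 20 at 1 and 16 at none. Where 2 or more records of a sequence held reads, their totals over both libraries were within 1.2-fold of each other for 9 of the 13 sequences. The sequence of miR157a stood on 3 records with reads, named smo-miR156b on A01 (687 reads in HT and 242 in HS), ath-miR157a on A02 (652 and 242) and mtr-miR156g on A03 (650 and 241). For the miR156 sequence printed above, ptc-miR156k on A01 held 245 and 110 reads, ath-miR156a on A04 265 and 104, and vvi-miR156e on A09 272 and 102. The miR166 sequence printed above held 1188 and 1308 reads at osa-miR166e on A05, 1192 and 1338 at osa-miR166g on A09, and 1200 and 1364 at gma-miR166j-3p on A10. The 4 sequences whose totals were further apart were those of aly-miR171b* (2 to 3 reads), aly-miR169i* (3 to 5), miR393 (14 reads for ath-miR393a and 30 for osa-miR393b) and a longer form of miR166.
crt-miR166a on A02 and crt-miR166b on A06: tCGGACCAggcttcattcccct
This sequence held 1245 reads in HT and 1273 in HS under the first name but 24 and 7 under the second. The miRBase entry of each name differs from the listed sequence by 1 edit.

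Sequences with reads at only 1 of their loci included those with the most reads, vvi-miR319g on A03, listed also on A01, and osa-miR164d on A02, listed also on A05. In all, 26 loci without a count list a sequence that has reads under another name. The reads of a locus can therefore not be assigned to that copy, and sums over loci count some reads more than once. Taking each of the 151 distinct sequences with reads once gave 31538 reads in HT and 23864 in HS, so that 17.3% of the reads summed over records were on records repeating a sequence. Whether these are the same reads was not tested.

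Clusters were defined as runs of loci, on either strand, with gaps of at most 10 kb. There were 119 clusters with 265 loci (23.8% of all), of which 101 had 2 loci, 12 had 3, 3 had 4 and 3 had 5. A single family made up 69 of the clusters. In 55 of these the whole cluster fitted within 300 nt, 42 of them with all loci on one strand, and 14 were longer. The families with 10 or more loci had 55.0% of their loci in clusters, compared with 8.58% of the loci of families with 1 locus. The nutrient and copper group had the highest share of the groups (44 of 61 loci, 72.1%). Reads stood at 91 of the 265 clustered loci (34.3%) and at 75 of the 850 others (8.82%). Clusters of one family held reads in 54 of 69 cases and clusters of several families in 10 of 50.

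The miR169 family formed 3 tandem arrays with the same 2 mature sequences in the same order.
First locus of each array (A01, A02, A06): tAGCCAAGgatgacttgcctg
Second mature locus (A01, A02, A06): tAGCCAAGgatgacttgccta
miRNA* of both stem-loops on A02 and the second on A06: ggcagtctccttggctatc
miRNA* of the first stem-loop on A06: ggcagtctccttggctatt
The 2 mature sequences differ by 1 edit and share their seed, and so do the 2 miRNA* forms differ by 1 edit. On A02 the array ran on the plus strand from the locus at A02:22304559-22304579 to that at A02:22305046-22305064, and on A06 from A06:22657552-22657572 to A06:22658039-22658057. Counted from the start of the first mature locus, the miRNA* of the first stem-loop began at 129 nt on A02 and 133 nt on A06, the second mature locus at 374 and 364 nt, and the second miRNA* at 487 nt on each. On A01 the second mature locus, at A01:26736045-26736065, began 981 nt after the first, at A01:26735064-26735084, and no miRNA* was listed downstream. Each of the A02 and A06 arrays also held 1 minus-strand locus opposite a listed one, which made 5 loci each.

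Reads of the miR169 arrays were few. By record they lay mainly on the miRNA* side, but 3 of the counted miRNA* records list one sequence, so their reads may be counted more than once. On A02, ptc-miR169q held 4 reads in HT and 0 in HS, aly-miR169m* 2 and 1, and aly-miR169j* 4 and 1. On A06, aly-miR169h* held 5 and 0 and aly-miR169i* 4 and 0, and the mature loci had no count. The array on A01 had none. The first mature loci on A01 and A06 list the sequence of ptc-miR169q, so its 4 reads fit them as well. Most miR169 reads were listed instead at loci that stand alone or as one hairpin. Of those named next, ptc-miR169s shares its sequence with a locus on A01, and vvi-miR169v with loci on A02 and A09. The reads of these names fit the other loci as well. The locus of mtr-miR169i on A06 (A06:551999-552019) held 1108 reads in HT and 344 in HS, ptc-miR169s on A08 (A08:11324979-11325000) held 305 and 143, and vvi-miR169v on A06 (A06:17327906-17327926) held 203 and 138. The first 2 have the seed GAGCCAA, in place of the AGCCAAG of the arrays.
mtr-miR169i, A06: tGAGCCAAagatgacttgccg
ptc-miR169s, A08: tGAGCCAAggatgacttgccg

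**Figure D4:**
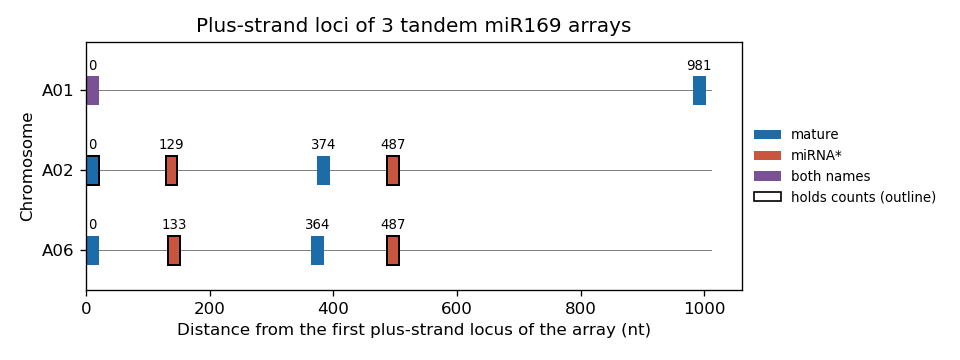
Positions of the plus-strand loci in 3 tandem arrays of miR169, as distance in nt from the start of the first plus-strand locus (x axis), for arrays on A01, A02 and A06 (y axis); colours give the kind of name, a black outline marks loci holding counts, and numbers give each start. The A02 and A06 arrays have the same 4 loci, with the last start at 487 nt on each.

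The miR395 family, which targets ATP sulfurylases and a sulfate transporter, formed 2 clusters on A07. The first spanned A07:7662802-7673076. It held aly-miR395i, which had no count, mtr-miR395h (62 HT and 3 HS reads) and ath-miR395b (1070 and 178).
aly-miR395i, A07 minus strand: cTGAAGTGtttggaggaactc
mtr-miR395h, A07 minus strand: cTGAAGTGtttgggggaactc
ath-miR395b, A07 plus strand: cTGAAGTGtttggggggactc
The last 2 sequences differ by 1 edit and share the seed, but ath-miR395b held more reads in each library. The ath-miR395b sequence also stood on A08 as aly-miR395c, with 1025 reads in HT and 151 in HS. The HT/HS ratio was 20.04 (95% interval 6.55 to 99.8) for mtr-miR395h, 5.83 (4.97 to 6.87) for ath-miR395b and 6.58 (5.54 to 7.86) for aly-miR395c. The second cluster spanned A07:18554034-18560979 with 5 loci, 3 mature and 2 miRNA*, of which only bdi-miR395d held reads (3 in HT and 0 in HS). Of its 2 loci with the mtr-miR395h sequence, ath-miR395a and mtr-miR395g, neither had a count.

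The miR399 family, which represses the ubiquitin conjugase PHO2 in phosphate shortage, formed 4 clusters longer than 300 nt, as many as miR169, but was almost without reads. They lay at A03:8003066-8005514 (3 loci), A04:15098228-15101897 (4 loci), A08:16739532-16741527 (3 loci) and A09:22742728-22744845 (2 loci), each with loci on both strands. The whole family of 21 loci held 1 read in HT and 3 in HS. All 13 of the mature loci share the seed GCCAAAG, and 2 of their sequences are given as examples.
ath-miR399d, at 3 loci on A03, A04 and A08: tGCCAAAGgagatttgccccg
ath-miR399f, at 3 loci on A04, A07 and A09: tGCCAAAGgagatttgcccgg
For scale, a count of 0 allows up to 3 reads, which is 0.111 TPM for HT and 0.114 TPM for HS.

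On A10 the miR397 and miR857 loci stood in one cluster of 820 nt (A10:10579037-10579856) on the plus strand. The first, at which 9 records were merged, is bna-miR397a, for which 688 HT and 1106 HS reads were listed. The loci of aly-miR857* and ath-miR857 followed 198 and 799 nt further without reads. Both families target laccase genes in Arabidopsis. A second cluster on A10 held 3 miR166 loci in 3258 nt (A10:16348720-16351977), all with reads: aly-miR166b* (72 reads in HT and 71 in HS), ctr-miR166 (2 and 5) and gma-miR166j-3p (1213 and 1370, summed over 2 counted records). On A02 sof-miR159c (4 and 6) and ath-miR319c (86 and 89) lay within 5296 nt, and each of these loci carried names of both miR159 and miR319.

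Other clusters with reads at 2 or more loci were single hairpins or close neighbours. The hairpin of miR164 on A02 held the most reads (4068 in HT and 3052 in HS), and that of miR166 on A02 held 1321 and 1327. Loci of miR165 and miR166 stood together on A06 (A06:14433718-14433805, 2941 reads in HT and 2585 in HS) and A09 (A09:689017-689140, 1133 and 886). On A06, zma-miR166c* held 1885 and 1757 reads and ath-miR165a 1056 and 828. On A09, mtr-miR166d held 1124 and 884 reads and aly-miR165b* 9 and 2. Smaller sums were found for miR157 on A02 (671 and 249), miR398 on A03 (64 and 142), miR160 on A03 (176 and 138), miR169 on A06 (248 in HT, of which 203 of vvi-miR169v and 45 of its miRNA*), miR167 on A01 (385 and 232), miR319 on A04 (65 and 87), miR160 on A06 (45 and 33), miR166 on A06 (25 and 7), miR156 on A10 (57 and 34), miR156/miR157 on A07 (9 and 1), miR159 on A07 (11 and 9) and miR172 on A02 (1 and 2).

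The remaining clusters of 3 or more loci were small groups around one hairpin or loose neighbours of different families. The A05 cluster of miR408, the copper-regulated family that targets plantacyanin and laccases, held 3 loci in 92 nt with 1106 reads in HT and 406 in HS. One hairpin each, with a locus on the opposite strand, made up the clusters of miR164 on A01 (1 read in each library), miR172 on A02 (1 and 0), miR169 on A05 (10 and 3) and miR399 on A09 (1 and 0). Unrelated families stood together on A05 (miR160 and miR2643, 16 and 4 reads), A08 (miR482 and miR1064, 17 and 19), A09 (miR396 and miR780, 6 and 9) and A03 (miR319, miR825 and miR1215, no reads).

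Mature and miRNA* loci of one family within 300 nt on one strand were read as the arms of one hairpin. There were 56 such pairs in 22 families, 64 to 266 nt long with a median of 96 nt. Of the mature loci, 25 were on the 5′ side of their pair and 31 on the 3′ side. All pairs of miR156 (5) and miR160 (4) had it in the 5′ arm, and all pairs of miR399 (5), miR166 (4) and miR172 (4) in the 3′ arm. Only miR169 had pairs of both kinds (7 and 2), and its 2 pairs with a 3′ mature arm joined the miRNA* of one stem-loop to the mature locus of the next in the A02 and A06 arrays. These 2 pairs, 266 and 252 nt long, were thus not single hairpins, but they are included in all counts of pairs given here. The longest of the other pairs was 197 nt. Both arms held reads in 17 pairs, the mature arm alone in 11, the miRNA* arm alone in 18, and neither in 10.

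Of the 17 pairs with reads on both arms, 10 had more mature reads in both libraries and 4 had more miRNA* reads in both. The mature arm led most at miR164 on A02 (A02:1457147-1457278), with 4063 reads in HT and 3048 in HS against 5 and 4 of the miRNA*. At miR166 on A02 the mature arm held 1245 and 1273 reads and the miRNA* 76 and 54, so that the miRNA* made up 5.75% (95% interval 4.56 to 7.15) of the HT reads of the pair and 4.07% of the HS reads. The 4 pairs with more miRNA* reads were those of miR408 on A05, miR160 on A03, miR166 on A10 and miR172 on A10. Pairs needed one family name, so zma-miR166c* (1885 HT and 1757 HS reads) and ath-miR165a (1056 and 828) on A06 were not paired. The miR408* of A05 made up 99.7% (99.2 to 99.9) of the HT and 98.3% of the HS reads of its pair, with 1103 reads in HT against 3 of the mature arm. The miR160* of A03 held 146 and 107 against 30 and 31, a share of 83.0% (76.6 to 88.2) in HT and 77.5% in HS. The miR166* of A10 held 72 and 71 against 2 and 5, and the miR172* of A10 36 and 38 against 1 and 1. Since mature sequences of miR160, miR166 and miR172 recur at other loci, these ratios compare records and not the output of the hairpin. The mature locus of miR408 merged 6 records, among them ath-miR408, and its reads were listed under smo-miR408. Whether this lowered its count was not tested.

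The HT/HS ratios of the arms had intervals that did not overlap in 3 of the 17 pairs with reads on both arms. These were miR398 on A03, miR167 on A01 and miR408 on A05. The miR398 pair (A03:2736141-2736236) is of a family that represses copper superoxide dismutases. Its miRNA* held 35 reads in HT and 30 in HS and its mature arm 29 and 112. The miRNA* thus made up 54.7% (41.8 to 67.2) of the reads of the pair in HT and 21.1% in HS. The HT/HS ratio was 1.13 (0.67 to 1.91) for the miRNA* and 0.251 (0.161 to 0.381) for the mature arm. The mature sequence is also listed on A10, where aly-miR398b* held 150 and 358 reads, so the mature reads cannot be assigned to the hairpin on A03. At miR167 on A01 the ratio was 1.67 (1.41 to 1.98) for the mature arm and 0.291 (0.051 to 1.13) for the miRNA*, which held 3 and 10 reads, and the mature sequence is listed at 3 loci. At miR408 on A05 it was 0.416 (0.069 to 1.82) for the mature arm, with 3 and 7 reads listed under smo-miR408, and 2.68 (2.39 to 3.01) for the miRNA*. At miR157 on A02, in contrast, the arms had like ratios, 2.61 (2.25 to 3.04) for the mature arm and 2.63 (1.06 to 7.41) for the miRNA*.

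Where several loci of a family were listed, the miRNA* sequences varied more than the mature ones. In 12 families with at least 3 loci of each kind, the median number of edits between loci was larger for miRNA* in 11 and equal in 1, miR172. For miR166 the median was 1 edit among 8 mature loci and 6 among 8 miRNA* loci, for miR164 it was 2 and 7 among 7 loci each, and for miR156 it was 2 among 19 and 5 among 10.

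At 16 positions, 2 loci overlapped on opposite strands, by 17 to 21 nt and in 13 cases by exactly 19 nt. They belonged to miR169 (4 pairs), miR171 (3), miR172 (2) and, with 1 pair each, miR160, miR161, miR164, miR167, miR396, miR399 and miR408. Both loci of a pair were of one family, and in 13 a mature locus faced a miRNA* locus. Reads were listed for one strand in 10 of these and for both strands in none. For example, ptc-miR171c on the minus strand of A07 held 48 reads in HT and 35 in HS, and zma-miR171b* on the plus strand had no count.

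Names of more than one family fell on 9 loci. The pairs were miR159 with miR319 (3 loci), miR156 with miR529 (2), and miR156 with miR157, miR157 with miR1088, miR170 with miR171 and miR482 with miR1448 (1 each). The locus of miR157 and miR1088 on A02 had the most reads, 652 in HT and 242 in HS. Of the 281 candidate stem-loops, which the authors predicted from other reads, 201 lay on chromosomes and 80 on scaffolds. Only 3 of them overlapped a known locus, all 3 at the same one, miR2911 on the minus strand of A06 (A06:20182436-20182455). Within 10 kb of a known locus lay 25 candidates, beside 11 loci, and 11 of the 25 lay beside miR2911. None of the 10 other loci had more than 1 read.

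The reads of the genotypes were compared at the 93 loci with at least 10 reads. Of these, 32 (34.4%) differed by more than 2-fold in TPM, 21 (22.6%) being higher in HT and 11 (11.8%) lower. Summed over all loci the HT/HS ratio was 1.30 (1.28 to 1.32). Because the sum itself was higher in HT, dividing by it in place of the library size lowered every log2 ratio by 0.38 and changed the split to 13 higher and 21 lower. The median ratio of records with at least 50 reads gave a shift of 0.37 and 15 higher and 17 lower. A ratio between 1 and 1.30 is therefore above or below 1 depending on the scaling. A lower count can come from fewer cells of a type or from less RNA per cell, and in these bulk samples the 2 cannot be told apart.

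The loci with the largest HT/HS ratios were mtr-miR395h on A07 (20.04), csi-miR172b on A10, aly-miR395c on A08, ath-miR395b on A07, and aly-miR165b* on A09. The locus of csi-miR172b (A10:11965781-11965801) held 605 reads in HT and 36 in HS, a ratio of 16.3 (11.6 to 23.5). Its sequence is also listed on A04, so these reads fit that locus as well. The other 9 counted loci of miR172 held few reads, and 2 of them had at least 10. The mature locus of sbi-miR172b on A03 held 4 reads in HT and 7 in HS, a ratio of 0.554 (0.119 to 2.18). The miRNA* locus of bra-miR172b* on A10 held 36 and 38, a ratio of 0.919 (0.566 to 1.49). Both intervals include 1. With 9 reads in HT and 2 in HS, aly-miR165b* had a ratio of 4.36 whose interval (0.90 to 41.5) includes 1. In the miR156 family, all 11 loci with at least 10 reads were higher in HT, from 1.40-fold for ahy-miR156a to 2.75-fold for smo-miR156b, and this also held when the sum of counts was the divisor (1.07 to 2.11). Several of these miR156 loci share a sequence and are not separate measurements. For comparison, the median ratio over all 93 loci was 1.23.

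The loci with the smallest ratios were aly-miR827*, ath-miR391, ath-miR400, aly-miR391* and osa-miR398b. On A09 aly-miR827* (A09:29434355-29434375) held 2 reads in HT and 65 in HS, a ratio of 0.030 (0.0035 to 0.11). The family targets a gene for a ubiquitin ligase of phosphate homeostasis in Arabidopsis, and its other 4 loci had no count. The ratio was 0.114 (0.013 to 0.48) for ath-miR391 on A03, with 2 and 17 reads, and 0.225 (0.12 to 0.39) for ath-miR400 on A09, with 16 and 69. At aly-miR391* on A09 there were 0 and 12 reads, at least 4.12-fold higher in HS against the floor of 3 reads. The mature locus of miR398 on A03 was given above.

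By role, the 2-fold differences were read against the 34.4% over all 93 loci. The phase change and flowering group was higher in HT at 9 of 16 loci and lower at none, with a median ratio of 2.27 against 1.23 over all loci. With the sum of counts as divisor, 5 were higher and 1 lower. The nutrient and copper group had differences in each direction, 4 higher and 4 lower of 10. This became 4 and 5 with that divisor. In the meristem and organ shape group, 3 of 28 loci were higher and 1 lower, with a median of 0.996, and 2 and 5 with the sum of counts. The group of miR160, miR167, miR390, miR391 and miR393 had 1 higher and 3 lower of 16, and 1 and 4 with the sum of counts. Of its 3 lower loci, 2 were of miR391, a sequence relative of miR390 and not a known regulator of auxin response. Of the 9 loci of miR169, miR170 and miR171, 2 were higher, and 1 with the sum of counts. These counts are given as a description, since loci of a family share sequences.

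Of the loci with at least 1000 reads, 19 in all, 4 differed by more than 2-fold, mtr-miR169i, mtr-miR408*, ath-miR395b and aly-miR395c, all higher in HT. With the sum of counts as divisor these 4 stayed over 2-fold higher, and bdi-miR162 (0.40) and bna-miR397a (0.463) were over 2-fold lower. By library size the other 15 lay between 0.522 (bdi-miR162 on A03, 711 HT and 1321 HS reads) and 1.52 (vvi-miR319g on A03, with 8313 and 5306). Osa-miR164d on A02 held 4063 and 3048 reads, zma-miR166c* on A06 1885 and 1757, ath-miR824 on A03 724 and 706, ath-miR167d on A08 695 and 541, and aly-miR170* on A03 524 and 498. The miR162 family targets DCL1, the enzyme that makes most plant miRNAs.

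**Figure D5:**
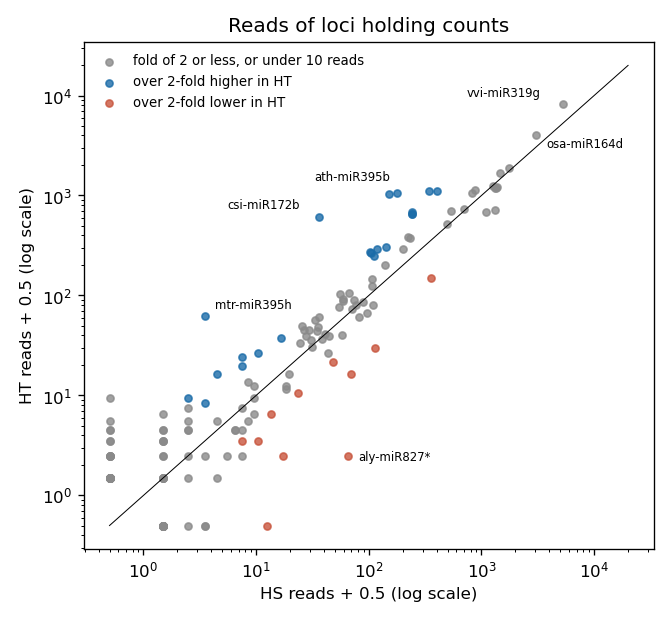
Reads in HT (y axis) against HS (x axis) for all loci holding counts, each plus 0.5 on log scales; the line marks equal counts, blue marks loci over 2-fold higher in HT and red loci over 2-fold lower in TPM, with at least 10 reads. The loci of miR172b and miR395 stand above the line, aly-miR827* below it.

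Summed by chromosome, the reads followed single loci. Chromosome A03 held 30.5% of the HT and 30.6% of the HS reads, A02 17.4% and 17.9%, and A06 17.0% and 16.9%. Leaving out vvi-miR319g lowered the HT share of A03 to 11.4%. The HT/HS ratio of the chromosome sums ran from 0.916 (0.870 to 0.964) on A10 to 4.05 (3.59 to 4.59) on A07. On A07 73.9% of the reads were of ath-miR395b, and without this locus the ratio was 1.91 (1.57 to 2.35). Without its top locus, ath-miR167d, A08 had the highest ratio, 3.57 (3.18 to 4.0). Of the 1419 HT and 386 HS reads then left on A08, 1025 and 151 were of aly-miR395c, which lists the sequence of ath-miR395b. When the reads of a sequence were shared equally among all its loci, A03 held 20.3% of the HT reads and A01 15.6%, up from 3.84%, since the miR319g sequence is also listed there.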

How the data were processed

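Total small RNA of the shoot apex was sequenced in 2 libraries, 1 per genotype. According to the study's methods, the authors removed adaptors, low-quality reads and known non-coding RNAs and matched the rest to plant miRNAs of miRBase (release 18 in the table header) by BLASTN. The deposited table gives counts and TPM made by the authors for each record, 1 position per record and the listed, genome and miRBase sequences. The authors' fold changes and p-values were not used. Positions are half-open from 0 in the table, on Brapa_sequence v1.1, and 1 was added to each start. This offset was checked at 3 candidate stem-loops that contain a known sequence. All 3 overlap the same locus, miR2911 on the minus strand of A06, so the check rests on 1 known locus. At 2 records with a TPM but no count, no count was taken.

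Loci, clusters (10 kb), arm pairs (300 nt), edits to miRBase and HT/HS ratios were computed with Python 3.11.15 and SciPy 1.17.1, and the functions were tested on simulated data. Library sizes are counts divided by TPM. A ratio needed at least 10 reads over both libraries to be called at 2-fold, and a count of 0 was replaced by 3 reads as a bound. A read count without molecular identifiers is not a count of molecules. Named loci are the 10 families with most loci, clusters of 3 or more loci or with 2 counted loci, loci with at least 1000 reads, and the 5 largest and smallest called ratios. The loci and lists were chosen with earlier results of these data known. Alternatives are given in the closing section.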

Additional observations from a re-analysis of the deposited data

How the results depend on the processing

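The number of loci (1115) stayed between 1052 and 1115 under all 4 alternatives run for merging. The count of clusters (119) depended on the definition: it was 209 with a window of 50 kb, 74 with stem-loops of 300 nt as the unit, 74 when loci had to be of one family, and 25 among loci with a count. With windows of 5 and 20 kb it was 92 and 151. Families with 2 or more loci numbered 145, but 27 when only loci with a count were used. Loci holding counts fell from 14.9% of loci to 93 loci when at least 10 reads were asked for. Of the 2-fold calls, 32 in all, the number was 54 at 1.5-fold, 14 at 3-fold, 20 with at least 50 reads and 21 when Fisher's exact test on the reads of these 2 libraries also had to pass, and 28 with each distinct sequence once. Under the sum of counts as divisor 24 of the 32 loci kept their call, and under the median of ratios 26, and none changed direction under the scalings, folds or minimums run. The HT share of A03 (30.5%) was 20.3% with reads shared equally and 11.4% without vvi-miR319g. Arm pairs numbered 53 to 60 under 3 alternatives. Joining near-identical families in arm pairs, and counting overlapping loci of opposite strands as one in clusters (112), were chosen after seeing the data. No paired analysis was possible because each genotype has 1 library, and for the same reason no replicate could be left out.

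The positions are those of B. rapa, so copies that differ in broccoli are not seen. Each record has 1 position, and copies are limited by the names in miRBase. Reads of identical sequences cannot be divided among loci. Loci with few reads cannot be ranked between genotypes at this depth.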

Other observations

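Some families with several loci had no reads under their own names. Besides miR477, miR902, miR529 and miR2275, this was the case for miR530 (6 loci), miR444 (5 loci) and miR1023 (5 loci), so that 7 families with 5 or more loci had no count. Of the species prefixes with 100 or more records, aly (Arabidopsis lyrata) had the largest share of records with reads, 39 of 178 (21.9%), and ppt the smallest, 2 of 100.

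At 50 records, 7 of them with reads, the listed sequence was not the same as the genome sequence at the listed position.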
